A study of Mus musculus with 16 samples.

Results

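Transcript levels of 10 genes of the integrated stress response and of serine and asparagine synthesis were examined in mouse embryos lacking the chromatin protein Smchd1. The genes were chosen by symbol, with earlier results of these data known. The set comprised the amino acid enzymes Asns, Phgdh, Psat1, Psph and Shmt2, the transcription factors Atf4, Cebpb and Ddit3, and the effectors Trib3 and Chac1. They were taken with every probe that the platform annotation gives them, which came to 14 of the 25697 probes on the array. Asns had 3 probes, Shmt2 and Ddit3 had 2 each, and the other genes had 1 each. A probe was kept where its log2 value exceeded 7 on at least 4 of the 16 arrays, which held for 10 of the 14 probes, and each gene was tested on its brightest kept probe. This left 7 of the 10 genes among the 6999 genes tested, because Psph, Trib3 and Chac1 had no kept probe.

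The embryos were FVB/n mice at embryonic day 9.5 (E9.5), wildtype or homozygous for MommeD1, a nonsense allele of Smchd1 induced by N-ethyl-N-nitrosourea, and of either sex. They came from natural matings of heterozygous parents, so the wildtype embryos were of the same intercross, and the yolk sac had been removed for genotyping. Each of the 4 groups (wildtype female, MommeD1 female, wildtype male, MommeD1 male) held 4 arrays, given by the study as separate embryos, and 2 chips carried 2 arrays of every group each. Every cell of a homozygous embryo carries the allele, and whole embryos were hybridized, so fewer cells of a type and less RNA per cell cannot be told apart.

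In the integrated stress response, kinases that sense missing amino acids, misfolded protein, lack of heme or viral RNA phosphorylate the translation factor eIF2 alpha. General translation then slows while the mRNA for the transcription factor ATF4 is translated more efficiently, and ATF4, paired with C/EBP proteins, switches on genes for amino acid synthesis, amino acid import and tRNA charging. Much of this control acts on translation and protein stability, which a transcript level does not show. Serine is made from a glycolytic intermediate by the enzymes PHGDH, PSAT1 and PSPH in turn, and the mitochondrial enzyme SHMT2 splits it into glycine and a one-carbon unit for nucleotide synthesis, a supply that the growing embryo draws on heavily.

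ATF4 and C/EBP proteins bind a composite element with the letters TGATGNAA, which in human ASNS is the core of the nutrient-sensing region of the promoter. RefSeq promoter windows of GRCm38.p6, reaching from 250 bases before to 50 bases after each start site, were searched for these letters on both strands. All 10 genes matched a window by gene identifier, and Psat1 had 2. Of the 11 windows 3 (27.3%) held the element, beside 1304 of all 32851 windows (3.97%). The 10 genes were chosen as genes of this response, and no enrichment was tested. Of the 3 genes that hold the element, only Asns had a kept probe. The windows of these 3 genes are printed first, because they show the element in its place. Those of Phgdh and Cebpb follow, because these genes differed between genotypes in females and their windows do not hold it. Each runs 5′ to 3′ on the strand of its gene, and capitals mark the element or its reverse complement.
Asns: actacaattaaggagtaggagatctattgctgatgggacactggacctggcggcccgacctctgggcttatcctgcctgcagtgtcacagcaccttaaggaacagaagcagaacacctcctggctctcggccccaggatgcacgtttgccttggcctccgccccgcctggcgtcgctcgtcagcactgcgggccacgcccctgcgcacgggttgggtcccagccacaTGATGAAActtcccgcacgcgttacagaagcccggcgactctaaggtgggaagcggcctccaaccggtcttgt
Trib3: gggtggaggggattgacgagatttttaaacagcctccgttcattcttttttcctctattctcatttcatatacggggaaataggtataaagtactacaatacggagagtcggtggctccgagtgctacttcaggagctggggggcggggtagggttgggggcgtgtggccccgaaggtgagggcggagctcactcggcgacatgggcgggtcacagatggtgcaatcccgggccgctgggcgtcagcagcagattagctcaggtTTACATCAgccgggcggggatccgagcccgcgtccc
Chac1: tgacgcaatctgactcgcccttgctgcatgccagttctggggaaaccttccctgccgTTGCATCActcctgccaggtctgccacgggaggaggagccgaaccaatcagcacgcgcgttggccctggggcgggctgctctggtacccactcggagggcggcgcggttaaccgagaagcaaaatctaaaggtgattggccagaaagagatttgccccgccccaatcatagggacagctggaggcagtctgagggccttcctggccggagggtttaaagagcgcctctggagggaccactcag
Phgdh: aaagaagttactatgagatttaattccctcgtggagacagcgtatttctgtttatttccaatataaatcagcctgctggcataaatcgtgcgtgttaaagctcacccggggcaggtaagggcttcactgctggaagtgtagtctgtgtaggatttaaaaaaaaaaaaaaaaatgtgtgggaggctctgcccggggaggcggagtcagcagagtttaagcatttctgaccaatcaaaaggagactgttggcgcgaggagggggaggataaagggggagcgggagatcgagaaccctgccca
Cebpb: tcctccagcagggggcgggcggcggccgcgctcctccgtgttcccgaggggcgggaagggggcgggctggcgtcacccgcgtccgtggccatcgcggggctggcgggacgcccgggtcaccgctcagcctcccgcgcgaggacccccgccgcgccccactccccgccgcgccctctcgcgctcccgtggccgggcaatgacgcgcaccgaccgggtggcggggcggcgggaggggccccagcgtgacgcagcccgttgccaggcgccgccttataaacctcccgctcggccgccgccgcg

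The Asns window lies at chr6:7693160-7693459 on the minus strand, and its element TGATGAAA starts 23 bases before the start site and reads along the gene. The Trib3 window lies at chr2:152344011-152344310 on the minus strand, and its element TTACATCA begins 14 bases past the start site and reads on the opposite strand. The Chac1 window lies at chr2:119350992-119351291 on the plus strand, and its element TTGCATCA, again on the opposite strand, begins 193 bases before the start. The windows of Phgdh (chr3:98339920-98340219, minus strand) and Cebpb (chr2:167688665-167688964, plus strand) held none, nor did those of Psat1, Psph, Shmt2, Atf4 and Ddit3. Elements farther from a start site were not searched. Among the 5734 tested genes with a window the share was 2.56%, among the 243 such genes that were higher in MommeD1 females it was 2.06% (5 genes), and among the 187 that were lower it was 0.535% (1 gene).

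Each array had a median log2 value of 6.34, and any pair of arrays in a group correlated at 0.99 or above (lowest r = 0.9906). Smchd1 itself lay between 9.72 and 9.98 in the 8 wildtype arrays and between 7.34 and 7.60 in the 8 MommeD1 arrays, so every array matched its labelled genotype. Of all tested genes, 7.47% passed the threshold (limma, Benjamini-Hochberg adjusted p under 0.05) between MommeD1 and wildtype females and 0.114% between MommeD1 and wildtype males. For the mean of both sexes 11.0% passed, for the difference between the female and male effects 0.357%, between the sexes of wildtype embryos 0.0714%, and between chips 2.59%. The embryonic markers were present (heart 3 of 4 listed genes over the level limit, neural tube 2 of 4, paraxial mesoderm 4 of 4). Yolk sac endoderm transcripts, 9 of 14 listed genes, varied between embryos, and the mean of their log2 values lay between 6.79 and 10.10 in MommeD1 females and between 7.14 and 8.41 in wildtype females. Erythroid transcripts (6 of 9) were abundant in all groups. Of 5 listed trophoblast genes 1 (Plac1) was over the level limit, and of 5 decidua genes 2 (Dcn and Cryab), but not Prl8a2 or Prl3c1. The array held 3 of the listed heart genes, 12 of the yolk sac endoderm, 8 of the erythroid and 3 of the trophoblast genes. Whether the samples held decidua or trophoblast was not tested.

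In females, Asns, Phgdh and Cebpb were higher in MommeD1 embryos, by 1.17-fold to 1.24-fold, and no array of the MommeD1 group overlapped a wildtype array for any of these genes. Psat1, Shmt2, Atf4 and Ddit3 did not pass the test. The 3 genes of 7 that passed stand beside 4.14% of all tested genes that passed in this direction in females, and 7.12% of all tested genes had a MommeD1 group wholly above the wildtype group. In males 0 of the 7 genes passed by limma, beside 0.114% of all tested genes. At an unadjusted p under 0.05 by limma the count was 4 in females and 0 in males, beside 1749 and 782 of the 6999 tested genes. All 7 overlapped between genotypes in males, where 6.32% of all tested genes had groups that did not overlap in either direction. The members' median log2 fold change was 0.14 in females and 0.02 in males, against −0.01 and 0.00 over all genes tested. Because the genes were chosen with earlier results of these data known, these counts and medians only describe them. An excess over all tested genes was not tested.

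**Figure D1:**
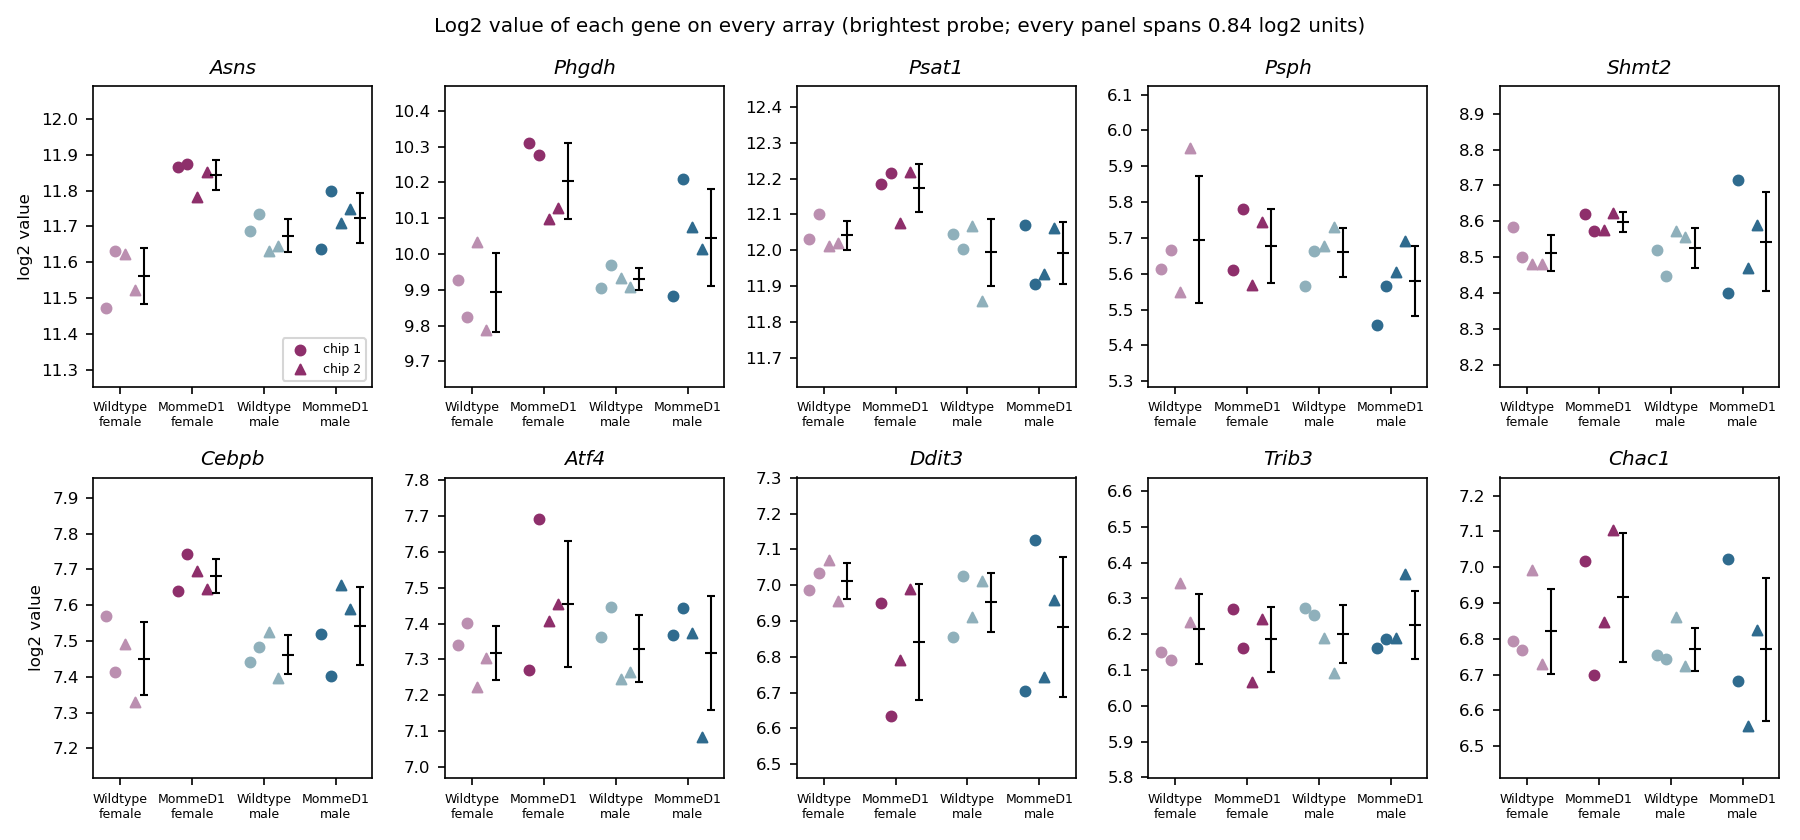
Log2 value (vertical axis, every panel spanning the same range) of each of the 10 genes on the 16 arrays, by group of genotype and sex (horizontal axis); circles are chip 1, triangles chip 2, and the bar beside each group is the mean ± SD of its 4 arrays. For Asns, Phgdh and Cebpb the 4 MommeD1 female arrays sit above all 4 wildtype female arrays, whereas the male groups overlap in every panel.

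Asns encodes asparagine synthetase, which makes asparagine from aspartate and glutamine and is a classical ATF4 target. On its brightest probe the log2 values were 11.47, 11.63, 11.62 and 11.52 in wildtype females and 11.87, 11.87, 11.78 and 11.85 in MommeD1 females. In males they were 11.69, 11.74, 11.63 and 11.64 in wildtype embryos and 11.64, 11.80, 11.71 and 11.75 in MommeD1 embryos. All 4 MommeD1 females were above every wildtype female, and the 8 male arrays, which overlapped between genotypes, lay largely between the female groups. In order, the means were 11.56 ± 0.08 in wildtype females, 11.67 ± 0.05 in wildtype males, 11.72 ± 0.07 in MommeD1 males and 11.84 ± 0.04 in MommeD1 females (SD, n = 4). The rise in females was 0.28 ± 0.06 on the log2 scale (SE), 1.21-fold, with an adjusted p of 0.0058, and the male difference was 0.05 ± 0.06 (adjusted p = 0.7808). The wildtype sexes, neighbors in that order, did not differ past the threshold (−0.11 ± 0.06, female minus male, adjusted p = 0.9989). The female effect exceeded the male effect by 0.23 ± 0.08 (95% confidence interval 0.07 to 0.40), and after adjustment over all genes the difference did not pass (adjusted p = 0.4278). Within chips the female difference was 0.32 on chip 1 and 0.24 on chip 2.

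The call for Asns rests on that probe. The second probe, with a mean of 9.53, gave 9.47, 9.49, 9.42 and 9.42 in wildtype females and 9.66, 9.51, 9.48 and 9.65 in MommeD1 females, so that one MommeD1 array lay among the wildtype arrays. Its difference in females was 0.12 ± 0.08 (adjusted p = 0.3302 when every kept probe was tested). The third probe, near the level limit with a mean of 7.10, differed by 0.06 ± 0.10 (adjusted p = 0.7517) and its female groups overlapped broadly. With the 3 probes averaged, the female difference was 0.15 with an adjusted p of 0.1215, past the threshold no longer, and the mean over both sexes 0.10 with an adjusted p of 0.1570.

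**Figure D2:**
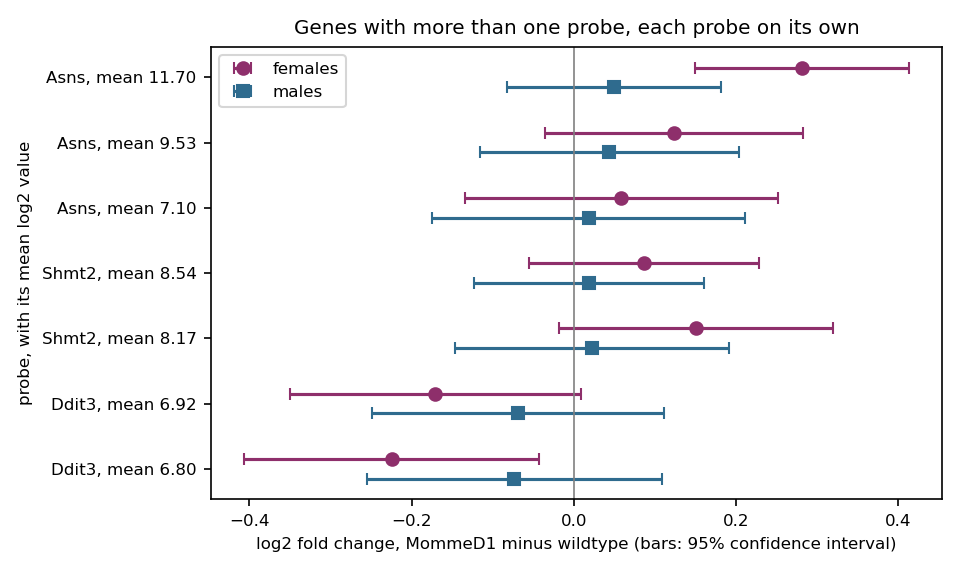
Log2 fold change of MommeD1 over wildtype (horizontal axis) for each probe of the genes that have more than one, with 95% confidence intervals from the fit to all probes on the array; circles are females and squares males, and the label gives the probe's mean log2 value. The Asns probes run from 0.28 to 0.06 in females in order of brightness, and both Ddit3 probes lie below 0.

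Phgdh encodes phosphoglycerate dehydrogenase, the first enzyme of serine synthesis. Its only probe, printed here because the largest rise among the 10 genes was read from it, is a 50-base stretch of the coding sequence on chromosome 3.
Phgdh probe: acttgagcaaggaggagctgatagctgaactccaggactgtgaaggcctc

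The study's probe annotation remarks that this stretch also matches a transcript on the reverse strand, and a signal from that strand was not tested. The log2 values were 9.93, 9.82, 10.03 and 9.79 in wildtype females and 10.31, 10.28, 10.10 and 10.13 in MommeD1 females. In males they were 9.91, 9.97, 9.93 and 9.91 in wildtype embryos and 9.88, 10.21, 10.08 and 10.02 in MommeD1 embryos. The lowest MommeD1 female was above the highest wildtype female, whereas one MommeD1 male fell below all wildtype males and the others lay above them. The means were 9.89 ± 0.11 and 10.20 ± 0.11 in wildtype and MommeD1 females and 9.93 ± 0.03 and 10.05 ± 0.14 in wildtype and MommeD1 males (SD, n = 4). Phgdh rose by 0.31 ± 0.07 on the log2 scale in females, 1.24-fold (adjusted p = 0.0152), and differed by 0.12 ± 0.07 in males (adjusted p = 0.5603). The female and male effects differed by 0.19 ± 0.10 (adjusted p = 0.6750). The female difference was 0.42 on chip 1 and 0.20 on chip 2, and with 2 arrays a group neither chip alone passed the threshold (adjusted p = 0.1811 and 0.3048).

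Of the enzymes after Phgdh, Psat1 and Shmt2 did not pass the test in either sex, and Psph had no kept probe. Psat1, phosphoserine aminotransferase, had values of 12.03, 12.10, 12.01 and 12.02 in wildtype females and 12.19, 12.22, 12.08 and 12.22 in MommeD1 females. Of the MommeD1 females, 3 lay above the wildtype range and the other within it. The female difference was 0.13 ± 0.06 (95% confidence interval 0.005 to 0.26). By limma its unadjusted p was 0.0426 and its adjusted p 0.1845. In males the Psat1 means were 11.99 in both genotypes and the difference was 0.00 ± 0.06 (95% confidence interval −0.13 to 0.13).

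Psph, the phosphatase that completes serine synthesis, was measured by 1 probe whose values ran from 5.46 to 5.95, below the array median on every array. With every probe on the array tested, its difference was −0.02 ± 0.08 in females (adjusted p = 0.9660). Shmt2 was measured by 2 probes. The brighter gave 8.59, 8.50, 8.48 and 8.48 in wildtype females and 8.62, 8.57, 8.58 and 8.62 in MommeD1 females, a difference of 0.09 ± 0.06 with one wildtype array inside the MommeD1 range (adjusted p = 0.4246). The second probe differed by 0.15 ± 0.08 in females (adjusted p = 0.2657 when every kept probe was tested). In males the 2 probes differed by 0.02 each. The 95% confidence intervals of the brighter probe ran from −0.05 to 0.22 in females and from −0.11 to 0.15 in males.

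Cebpb encodes C/EBP beta, a partner of ATF4 that is itself induced during amino acid shortage. Its log2 values were 7.57, 7.41, 7.49 and 7.33 in wildtype females and 7.64, 7.74, 7.70 and 7.65 in MommeD1 females. In males they were 7.44, 7.48, 7.52 and 7.40 in wildtype embryos and 7.52, 7.40, 7.66 and 7.59 in MommeD1 embryos. The MommeD1 females were all above the wildtype females, by a margin of less than 0.1 between the nearest arrays, and the male groups overlapped. Cebpb rose by 0.23 ± 0.06 on the log2 scale in females, 1.17-fold (adjusted p = 0.0333), with means of 7.45 ± 0.10 and 7.68 ± 0.05 (SD, n = 4), and differed by 0.08 ± 0.06 in males (adjusted p = 0.6704). This call was lost when any one of 6 arrays was left out. The adjusted p became 0.0752, 0.0591 and 0.1038 without wildtype female 2, 3 or 4, and 0.0866, 0.0680 and 0.0520 without MommeD1 female 2, 3 or 4, while the rise stayed between 0.19 and 0.27 over all arrays left out in turn. MommeD1 female 2 carried the most yolk sac endoderm transcript of all 16 arrays, and without it and the 2 male arrays next in order the difference in Cebpb was 0.21 (adjusted p = 0.1037), whereas Asns and Phgdh still passed.

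Atf4, the transcription factor at the center of the response, had values of 7.34, 7.40, 7.22 and 7.30 in wildtype females and 7.27, 7.69, 7.41 and 7.45 in MommeD1 females. One MommeD1 female stood at 7.69 and another lay within the wildtype range. The difference was 0.14 ± 0.09 in females (adjusted p = 0.3406) and −0.01 ± 0.09 in males (adjusted p = 0.9749). Atf4 was also lower on chip 2 than on chip 1 by 0.12 ± 0.06, which did not pass over all genes (adjusted p = 0.2421), and none of the 7 genes differed between chips past the threshold.

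Ddit3 encodes CHOP, a factor of the late and pro-apoptotic phase of the response. Its estimate in females was negative, where those of Asns, Phgdh, Psat1 and Shmt2 were positive, but it did not pass the test. Its brighter probe exceeded 7 on wildtype females 2 and 3, wildtype males 2 and 4 and MommeD1 male 2. It did so on no MommeD1 female. The probe was thus kept largely through wildtype arrays, where its mean was higher. On the brighter probe the values were 6.99, 7.03, 7.07 and 6.96 in wildtype females and 6.95, 6.64, 6.79 and 6.99 in MommeD1 females, and the groups overlapped at one MommeD1 array. The difference was −0.17 ± 0.09 in females (adjusted p = 0.2372) and −0.07 ± 0.09 in males (adjusted p = 0.8008). The dimmer probe, which did not reach the level limit on enough arrays, differed by −0.22 ± 0.09 in females and −0.07 ± 0.09 in males (adjusted p = 0.2517 and 0.9060 with every probe on the array tested).

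Trib3, a pseudokinase that feeds back on ATF4, was measured between 6.07 and 6.37, under the array median on all but 2 arrays, and differed by −0.03 ± 0.07 in females and 0.03 ± 0.07 in males with every probe tested (adjusted p = 0.9266 and 0.9747). Chac1, a glutathione-degrading enzyme induced downstream of ATF4 and CHOP, exceeded 7 on 3 arrays. These were MommeD1 females 1 and 4, at 7.02 and 7.10, and MommeD1 male 1, at 7.02. The other MommeD1 females stood at 6.70 and 6.85 and the wildtype females between 6.73 and 6.99, so the groups overlapped, and with every probe tested the female difference was 0.10 ± 0.09 (adjusted p = 0.7562).

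**Figure D3:**
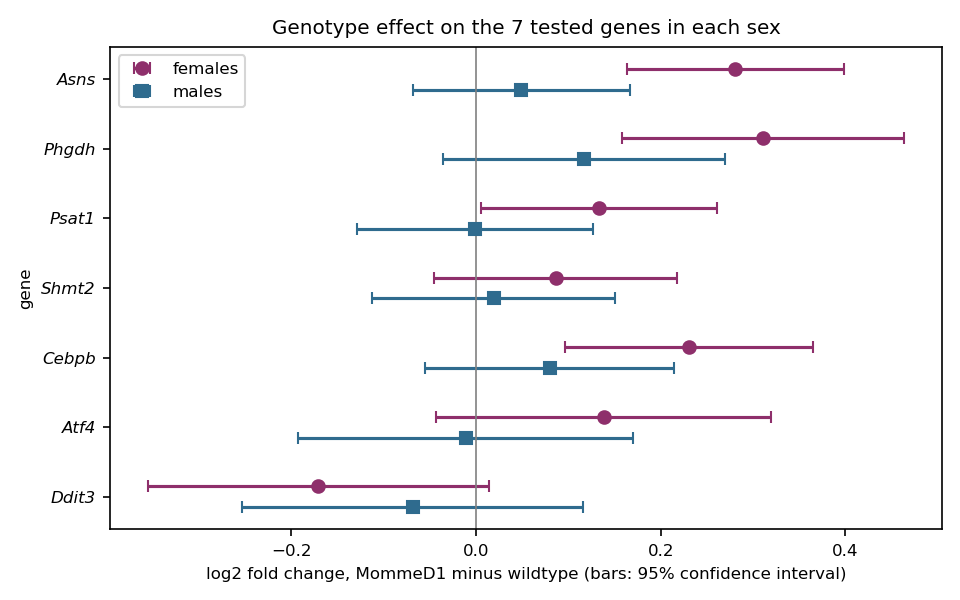
Log2 fold change of MommeD1 over wildtype (horizontal axis) for the 7 tested genes in females (circles) and males (squares), with 95% confidence intervals from the fit to all 16 arrays. In females the intervals of Asns, Phgdh and Cebpb lie well above 0 and Ddit3 has the only negative estimate, while every male interval includes 0.

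Averaged over both sexes, the same 3 genes passed, beside 5.74% of all tested genes higher in MommeD1 embryos. Asns was higher by 0.16 ± 0.04 (adjusted p = 0.0140), Phgdh by 0.21 ± 0.05 (adjusted p = 0.0142) and Cebpb by 0.16 ± 0.05 (adjusted p = 0.0342). The call for Cebpb was lost with 9 of the 16 arrays left out in turn, namely wildtype females 2 and 4, MommeD1 females 2 and 3, wildtype males 1, 2 and 4, and MommeD1 males 3 and 4, with adjusted p from 0.0506 to 0.0760. This average includes the female arrays and is no second observation. The female and male effects differed past the threshold for none of the 7 genes, and neither did the wildtype sexes. At an unadjusted p under 0.05 by limma, 1 of the 7 (Asns) differed between the female and male effects, beside 555 of all 6999 tested genes. Between the wildtype sexes 0 of the 7 did at that level, beside 196 of the 6999.

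Of the 3 heart markers tested, 2 rose with the female genotype on the same arrays. The mean log2 value of the 3 heart markers over the level limit (Actc1, Myl7 and Myl4) lay between 11.61 and 11.81 in wildtype females and between 11.95 and 12.06 in MommeD1 females, and between 11.63 and 11.94 across both male groups. Myl7 was higher by 0.56 ± 0.09 (adjusted p = 9.3e-04) and Actc1 by 0.30 ± 0.07 (adjusted p = 0.0181) in MommeD1 females, while Myl4 differed by 0.09 ± 0.09 with overlapping groups (adjusted p = 0.5915). Of 2 limb mesenchyme genes, Prrx1 was lower by 0.41 ± 0.09 (adjusted p = 0.0093) and Twist1 differed by −0.07 ± 0.07 (adjusted p = 0.5674). The part of tissue composition in the rises of Asns, Phgdh and Cebpb was not tested.

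Whether embryos of the same group that were high in one of the 7 genes were also high in another was examined over the 16 arrays, after each group's mean was removed, for all 21 pairs. No pair passed after Benjamini-Hochberg adjustment over the 21 pairs, and the median Pearson r was 0.06, with 11 of the pairs positive. Asns and Phgdh had r = 0.58 (permutation p = 0.0597, adjusted 0.4178) and Spearman rho = 0.54 (permutation p = 0.0785, adjusted 0.7148), r = 0.60 without the 2 arrays farthest in Asns, and r = 0.49 and 0.72 within chips 1 and 2. Shmt2 and Ddit3, whose promoter windows lie 232 kb apart on chromosome 10, had the highest r, 0.66 (permutation p = 0.0424, adjusted 0.4178), with rho = 0.53 (permutation p = 0.0927, adjusted 0.7148). That value was 0.32 without the 2 arrays farthest in Shmt2, both on chip 1, and r was 0.71 within chip 1 and 0.78 within chip 2. Atf4 had an r of 0.16 to Asns (permutation p = 0.5694), 0.08 to Phgdh (permutation p = 0.8228) and −0.01 to Psat1 (permutation p = 0.9787).

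As a description of the same within-group deviations, the genes most like each of the 7 genes over the 16 arrays were all outside the 10 genes and the pathway lists. Those most like Asns were Siah1a (r = 0.93), Il17rd (0.81) and Ppp2r5e (0.79), and those most like Phgdh were Dctn6 (0.87), Hint1 (0.84) and Rnf208 (0.82). For Psat1 they were Smc6 (0.85), Ogt (0.84) and Amd2 (0.82), and for Shmt2 they were Psma2 (0.92), Nup37 (0.82) and AU022252 (0.80). For Cebpb they were Ccdc71 (0.79), Rassf2 (0.78) and Trub1 (0.77), for Atf4 Utp15 (0.85), Spata6 (0.82) and Satb1 (0.82), and for Ddit3 Cdk5 (0.89), Ddah1 (0.85) and Polr2i (0.81). Each was chosen as one of the highest among all tested genes, over arrays that share chips and normalization.

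The other genes of the pathway were taken from 8 lists of 120 genes, of which 72 were tested. In females 0 of the 72 were higher and 3 were lower by limma, in males 0 passed (with 10 at an unadjusted p under 0.05), and for the mean of both sexes 1 was higher and 7 were lower. Over all tested genes 4.14% were higher and 3.33% lower in females, 11.2% had an unadjusted p under 0.05 in males, and 5.74% were higher and 5.26% lower for the mean of both sexes, so the count of lower genes in females and the male count lay near these shares. Among the eIF2 alpha kinases and phosphatases, 0 of 7 passed. Eif2ak1, the heme-regulated kinase, differed by −0.24 ± 0.08 in females (adjusted p = 0.0645) and 0.12 ± 0.08 in males (adjusted p = 0.5752). Ppp1r15a, which encodes the phosphatase subunit GADD34 and is itself induced by the response, differed by 0.16 ± 0.10 in females and 0.24 ± 0.10 in males (adjusted p = 0.3309 and 0.3784).

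Of 12 other ATF4 targets 0 passed in females, and the median of their log2 fold changes was 0.06 in females and −0.07 in males. Vldlr, a lipoprotein receptor, differed by 0.22 ± 0.07 in females (adjusted p = 0.0515). Its female groups did not overlap, which held in this direction for 7.12% of all tested genes. Ddit4, an inhibitor of mTORC1 signaling, differed by 0.41 ± 0.13 in females (adjusted p = 0.0627) with groups that overlapped. Both genes were called with chip as a block. Among the 3 tested partners of ATF and C/EBP proteins, Atf5 differed by −0.15 ± 0.05 for the mean of both sexes (adjusted p = 0.0570) and Jdp2 by 0.19 ± 0.09 in females (adjusted p = 0.2207). In the one-carbon list, where 0 of 9 passed, Atic, the last enzyme of purine synthesis, differed by 0.21 ± 0.06 in females, just short of the threshold, and Mthfd1 by 0.16 ± 0.08 (adjusted p = 0.1980).

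Of 16 cytosolic aminoacyl-tRNA synthetases, which charge tRNAs and many of which are ATF4 targets, 2 passed in females, both lower, and 0 in males. Of all tested genes, 3.33% passed as lower in females and 0.114% passed in males. The log2 fold change was positive for 2 of the 16 in females and 2 in males, beside 47.6% and 50.4% of all tested genes, and the medians were −0.07 and −0.06. No test was made of the list as a whole. Mars1 fell by 0.31 ± 0.07 in females (adjusted p = 0.0124), with means of 10.25 and 9.94 and groups that did not overlap. In males it differed by −0.17 ± 0.07, again without overlap (adjusted p = 0.3672), where 6.32% of all tested genes had groups that did not overlap. The share of all tested genes with a MommeD1 female group wholly below the wildtype group was not counted. Kars fell by 0.23 ± 0.06 in females (adjusted p = 0.0303). Eprs joined them for the mean of both sexes, where it fell by 0.22 ± 0.06 (adjusted p = 0.0239). Of the 12 synthetases with a RefSeq window 5 (41.7%) held the element, beside 4.51% of all genes with a window. They were Aars, Gars, Iars, Tars and Yars, of which Yars had no kept probe. Mars1, Kars and Eprs were not among them, and whether these 3 have a window is not given here.

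Amino acid transporters were not called in either sex. Slc38a2, a neutral amino acid transporter that amino acid starvation induces, was lower for the mean of both sexes by 0.15 ± 0.05 (adjusted p = 0.0401). In females Slc6a9, a glycine transporter, differed by −0.34 ± 0.12 (adjusted p = 0.0956) and Slc1a4 by 0.17 ± 0.08 (adjusted p = 0.1753). Of the 6 transporters tested, 2 had a positive estimate in females. Of the 11 genes of the other arms of the unfolded protein response, Xbp1, the factor that IRE1 activates by splicing, fell by 0.34 ± 0.10 in females (adjusted p = 0.0479), and Calr, an endoplasmic reticulum chaperone, fell by 0.18 ± 0.05 for the mean of both sexes (adjusted p = 0.0210). Hspa5, the chaperone BiP and the usual marker of stress in the endoplasmic reticulum, differed by 0.17 ± 0.09 in females (adjusted p = 0.2600). Its probe was dim, with a mean of 6.89, under the level limit of 7. By group, the mean was highest in MommeD1 females, at 6.99. Which arrays took this probe past the filter is not given here. Of the 8 mitochondrial chaperones and proteases, Htra2 was higher for the mean of both sexes by 0.25 ± 0.07 (adjusted p = 0.0261) and Yme1l1 was lower by 0.19 ± 0.06 (adjusted p = 0.0453). In females Trap1 differed by −0.22 ± 0.07 (adjusted p = 0.0525) and Htra2 by 0.31 ± 0.10 (adjusted p = 0.0539), neither past the threshold. The chaperonin gene Hspe1 did not pass either (0.16 ± 0.10 in females, adjusted p = 0.3638). Which of the 72 genes passed changed with single arrays, and in females Mars1 passed whichever array was left out.

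**Figure D4:**
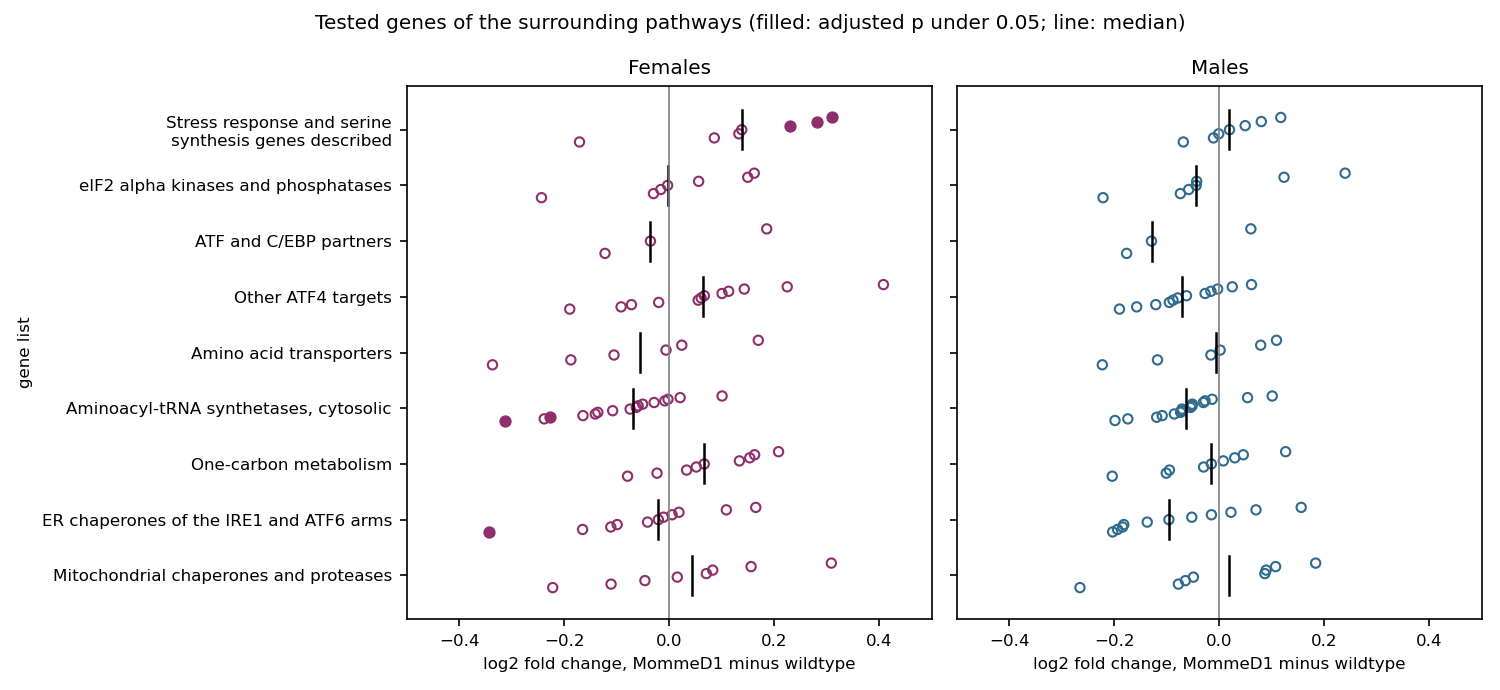
Log2 fold change of MommeD1 over wildtype (horizontal axis) for the 7 tested genes and the 72 tested genes of the 8 surrounding lists (vertical axis), in females (left) and males (right); each circle is a gene, filled where its adjusted p was under 0.05, and the vertical stroke is the median of the list. Filled circles to the right of 0 appear only for Asns, Phgdh and Cebpb in females, and those to the left are Mars1, Kars and Xbp1.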

How the data were processed

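Total RNA of E9.5 embryos was hybridized by the study to Illumina Mouse Ref-8 v2.0 BeadChips. The log2 values were normalized between arrays by the authors, who used Beadarray and limma, and were tested here as deposited. All arrays share one minimum and one maximum and nearly one median, the pattern of quantile normalization, and no source used here says whether background was subtracted. A table of non-normalized signals and detection p-values held 32 columns that no label ties to an embryo, and these were not used.

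A probe was kept where its value exceeded 7 on at least 4 of 16 arrays (9785 of 25697 probes), and a gene was represented by its brightest kept probe (6999 genes). One linear model with a term for each of the 4 groups was fitted to the 16 arrays in limma 3.58.1 under R 4.3.3 (12 residual degrees of freedom, variances moderated by eBayes). Its two-sided p-values were adjusted by the Benjamini-Hochberg method across the 6999 genes, with a threshold of 0.05. Errors beside fold changes are standard errors of this fit with 4 arrays a group, and the number of arrays limits the precision. The filter on dim probes does not use the groups, but a gene high in 1 group can pass through it. Pairs of genes were compared by 100000 permutations within groups (numpy and scipy). No source used here names a genome build for the probes, and promoter windows are those of RefSeq for GRCm38.p6.

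The 10 genes and the pathway and marker lists were chosen with earlier results of these data known. All 10 genes are named with every probe. From each pathway list every gene past the threshold in a genotype contrast is named, and otherwise some of the 4 with the lowest p in females, and for each tested gene the 3 most alike over the arrays. Alternatives covered the filter, the choice of probe, chip, replicate number, moderation, array weights, centering, each chip and each sex alone, and leaving out arrays. The alternatives for the pathway lists were added after the data had been seen.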

Additional observations from a re-analysis of the deposited data

Results flagged for a closer look

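Single arrays were compared with the rest of their group for all 14 probes in the 4 groups, 56 comparisons in all, of which 2 stood out by Dixon's criterion, where chance flags about 1 in 20. On the dimmer Ddit3 probe MommeD1 female 4 read 6.79, while the other 3 arrays of its group lay between 6.60 and 6.61. On the Trib3 probe MommeD1 male 4 read 6.37, while the others lay between 6.16 and 6.19. Both probes were under the level limit, and both arrays were on chip 2. No difference between the female and male effects passed the threshold for any of the 7 tested genes.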

How the results depend on the processing

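The call of 3 genes in females (Asns, Phgdh and Cebpb) was 2 or 3 whichever array was left out, and 2 with no filter, with probes averaged, with trended and robust moderation, without the 3 arrays richest in yolk sac transcripts, or with the female arrays alone. Phgdh was in all of these, Asns was lost with probes averaged, and Cebpb was lost wherever else the count was 2. For the mean of both sexes the count of 3 became 1 (Phgdh) with no filter, and 2 or 3 with arrays left out, where Cebpb was lost in 9 of 16. Asns was lost there with probes averaged (adjusted p = 0.1570), and Cebpb with trended and robust moderation (adjusted p = 0.0553) or without the yolk sac arrays (adjusted p = 0.0728). With chip 1 alone or chip 2 alone the count was 0 in females and 0 for the mean of both sexes, where each fit has 8 arrays. Counts in males, for the sex difference, for sex in wildtypes and between chips stayed at 0 in every alternative run. With the replicate block, that is the replicate number as a term, the counts were 3 in females, 0 in males and 3 for the mean of both sexes. Of 8 same-numbered pairs of embryos 3 correlated above 0.1 (from −0.07 to 0.40) and 3 matched their own number best, so the numbers were not taken to pair embryos.

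The 72 pathway genes were less stable. The count of 3 in females became 1 with no filter, 8 with the stricter filter or with chip as a block, 5 with probes averaged, 6 with the replicate block, with trended moderation or with female arrays alone, 0 with chip 1 or chip 2 alone, and 1 to 6 with single arrays left out. In males 0 became 1 (Eprs) without the 3 yolk sac arrays, and was 0 to 1 with single arrays left out, 1 without MommeD1 male 1. The 8 for the mean of both sexes became 3 with no filter, 0 and 1 within chips 1 and 2, 5 without the yolk sac arrays, and 4 to 10 with single arrays left out. In females it was 1 without wildtype female 3, MommeD1 female 3 or MommeD1 female 4, and 6 without MommeD1 male 1 or 3. For both sexes it was 4 without wildtype female 3 or MommeD1 male 2.

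The values of single genes that changed sign were uncalled in the full data and under the alternative. With chip 1 alone the log2 difference in males was −0.0023 for Cebpb and 0.0020 for Atf4, the female minus male effect of Shmt2 was −0.0212, and the sex difference in wildtypes was 0.0598 for Shmt2 and 0.0294 for Cebpb. With chip 2 alone it was 0.0341 for Psat1 and −0.0362 for Shmt2 in males and 0.0090 for Atf4 between wildtype sexes. Without the yolk sac arrays the sex difference was 0.0040 for Shmt2 and 0.01 for Cebpb. With single arrays left out, the male differences ranged from −0.0466 to 0.0279 for Psat1, from −0.0382 to 0.0667 for Shmt2 and from −0.0534 to 0.0668 for Atf4. The sex differences in wildtypes ranged from −0.0378 to 0.0040 for Shmt2, from −0.0505 to 0.0297 for Cebpb and from −0.0406 to 0.0270 for Atf4. The cause was not tested. The limits are 4 embryos a group, female differences of 0.31 or less on the log2 scale, and probe means under 7 for Psph, Trib3, Chac1 and Ddit3.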
